A study of Mus musculus with 3 samples.

Results

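Interleukins are secreted proteins through which blood cells, and many tissue cells, signal to each other. Most act through a receptor built from several membrane chains: a chain that binds 1 interleukin is paired with a chain shared by several, such as the common gamma chain, gp130 or the interleukin-1 receptor accessory protein. Soluble antagonists, binding proteins and decoy receptors take up the ligand or block the receptor. The genes described here are those whose name on a mouse whole-genome array starts with Il and a digit, control spots left out. The rule found 84 genes, read by 125 probes, among 19712 genes of the array that could be named. By known function, 37 encode ligands, 40 receptor chains and 4 soluble antagonists or binding proteins, namely Il1rn, Il1f5, Il18bp and Il22ra2. The other 3 carry such a name but have another function: Il4i1 is an amino acid oxidase, and Il8ra and Il8rb, now called Cxcr1 and Cxcr2, are chemokine receptors. Il28b and Il28ra, now Ifnl3 and Ifnlr1, are interferon lambda and its receptor, and the Il1f names belong to the interleukin-36 group and its relatives.

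Total RNA of bone marrow, adult liver and fetal liver from C57BL/6 mice was measured on 1 single-colour Agilent array per tissue. Mice aged 12 weeks gave the adult liver, and fetuses of gestation day 13.5 the fetal liver. Whether the same age in weeks holds for the bone marrow donors is not clear from the label wording. The study compares the tissues: fetal liver at this stage and bone marrow after birth both form blood, whereas the adult liver is mainly metabolic. Nothing in the labels names a mutation or treatment, and whether animals were pooled is not given in the sources used here. Since no tissue was measured more than once, the spread between animals is unknown, no test is possible, and every difference describes these 3 RNA samples. Sizes are in scaled signal, on which the 75th percentile of each array's gene spots is 100. A gene counts as different at 4-fold or more.

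Before scaling, that percentile lay at 894.5 in bone marrow, 296.5 in adult liver and 386 in fetal liver. A probe was taken as measured where the scanner software marked it well above background, which no probe below 2.65 scaled units was in bone marrow, 6.37 in adult liver and 3.89 in fetal liver, so dim genes are harder to see in adult liver. Where a gene was measured in 1 tissue of a pair alone, "at least" marks a lower bound of the fold, taken against the higher of these limits and the probe's own signal. No spot was saturated. The software's own error of the members' measured signals had a median of 10.1% in bone marrow, 10.4% in adult liver and 12.1% in fetal liver, and was at most 20.7%, 20.8% and 21.3%. It covers the spot, not the animal. All 8 of 8 neutrophil, 6 of 6 B cell and 7 of 7 mast cell, basophil and eosinophil markers were well above background in bone marrow, and all 6 of 6 hepatocyte markers in adult liver. Alb, Apoa1, Ttr and Cyp2e1 were not well above background in bone marrow, nor was Cyp2e1 in fetal liver. In whole tissue, fewer cells of a type and less RNA per cell cannot be told apart.

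More of these genes were measured in bone marrow than in either liver. In bone marrow 56 of 84 members (66.7%) were well above background, against 38 (45.2%) in adult liver and 43 (51.2%) in fetal liver. Over all genes the shares were 70.7%, 65.4% and 70.4%. The receptor chains showed this most: 34 of 40 (85%) were measured in bone marrow, 22 (55%) in adult liver and 25 (62.5%) in fetal liver. Of the 37 ligands, 18 (48.6%) were measured in bone marrow, 12 (32.4%) in adult liver and 14 (37.8%) in fetal liver. In each tissue the share of ligands thus lay below that of all genes, and in bone marrow the share of receptor chains lay above it. With 1 common limit for the 3 arrays, a setting added after the data were seen, receptor chains numbered 32, 22 and 21 and ligands 12, 12 and 13, so the higher number of ligands in bone marrow rests on the lower limit of that array.

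**Figure D1:**
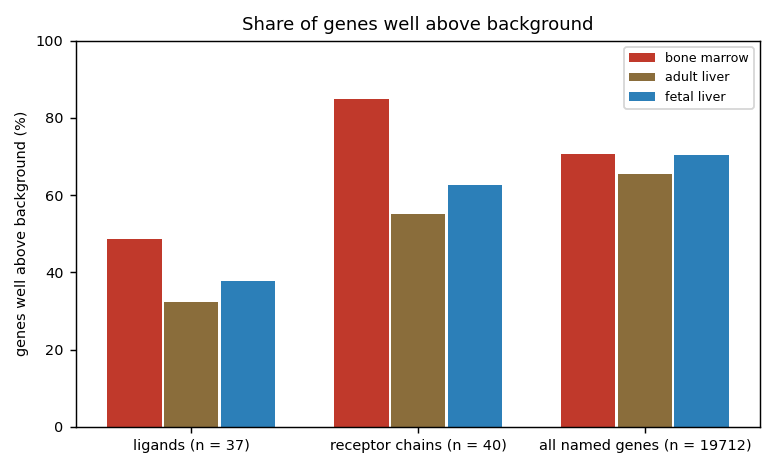
Percent of 37 ligand genes, 40 receptor chain genes and all 19712 named genes whose probe was well above background (vertical axis) in bone marrow, adult liver and fetal liver, 1 array each. Receptor chains stand at 85%, 55% and 62.5%, ligands at 48.6%, 32.4% and 37.8%, and all genes at 70.7%, 65.4% and 70.4%.

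Differences of 4-fold or more leaned towards bone marrow. Between bone marrow and adult liver, 20 of 58 members compared (34.5%) were higher in bone marrow, 11 of them as bounds, where 14.4% of all genes were. In the same comparison 9 members (15.5%) were higher in adult liver, 2 of them as bounds, against 18% of all genes. Among genes measured on all 3 arrays, 8 members were higher in bone marrow and 6 in adult liver. Over all genes under that filter the counts were 1425 and 1794. The size of the lean towards bone marrow thus depends on genes dim in a tissue. Between bone marrow and fetal liver, 21 of 58 (36.2%) were higher in bone marrow, 8 as bounds, against 8.19% of all genes, and 2 (3.45%) were higher in fetal liver, against 9.21%. Between adult and fetal liver, 11 of 48 (22.9%) were higher in adult liver, 4 as bounds, against 13.8% of all genes. In fetal liver 2 (4.17%) were higher, both bounds, against 11.7%. The comparisons share arrays, so they are not independent of each other.

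The median between bone marrow and adult liver did not lean as the counts did, while the other medians did. Over the 36 members measured in both bone marrow and adult liver the median log2 difference was -0.41, against -0.16 over all genes, and with the bounds included it was 0.24 over 54 members, so its sign depends on the genes dim in adult liver. Against fetal liver, the median of bone marrow was 0.85 over 41 members measured in both and 1.52 over 56 with bounds, where all genes had -0.25 and -0.26. Between adult and fetal liver it was 0.88 over 33 members and 0.83 over 45 with bounds, where all genes had 0.03 and -0.06. By role, 13 of 35 receptor chains and 5 of 18 ligands were at least 4-fold higher in bone marrow than in adult liver, and 7 receptor chains and 1 ligand were lower. Against fetal liver, 13 of 34 receptor chains and 6 of 20 ligands were higher in bone marrow, and 2 receptor chains and no ligand were lower. Between adult and fetal liver, 9 of 28 receptor chains and 2 of 15 ligands were higher in adult liver, and 2 receptor chains and no ligand were lower.

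**Figure D2:**
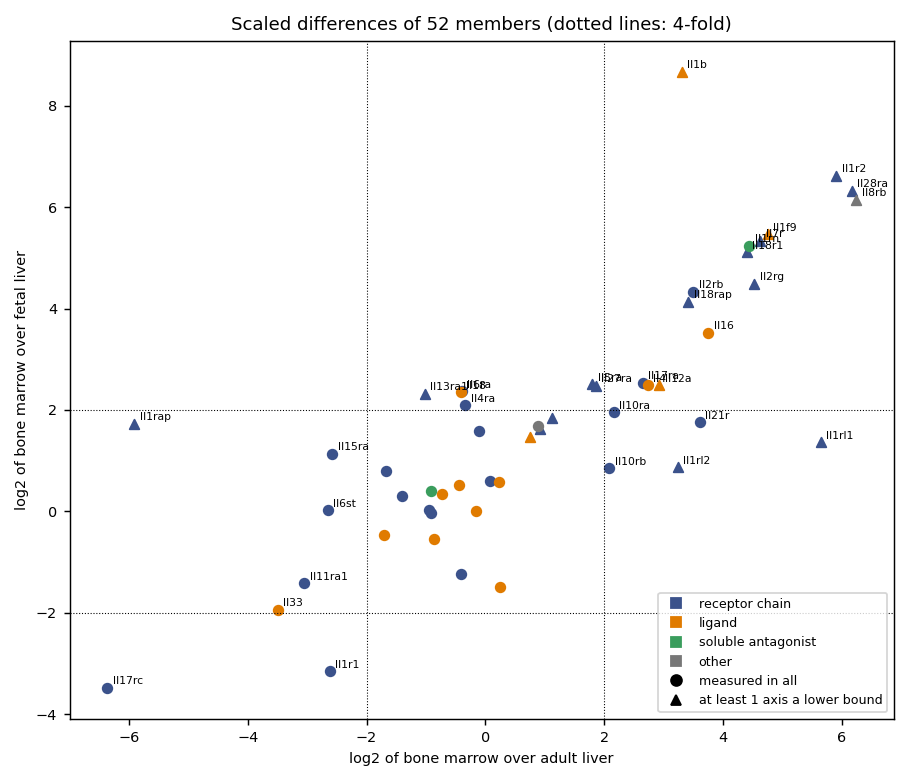
Log2 of bone marrow over adult liver (horizontal) and over fetal liver (vertical) for the 52 members with a value on both axes, 1 point per gene, coloured by role. Triangles have a lower bound on at least 1 axis, dotted lines mark 4-fold, and the axes share the bone marrow array. Il8rb, Il28ra and Il1r2 lie at the upper right, Il17rc at the lower left, and Il1rap, Il15ra and Il6st to the left.

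Counting members that stood at least 4-fold apart from both other tissues, 15 were highest in bone marrow, 5 in adult liver and none in fetal liver. Of all genes measured somewhere, 5.10% were of the first kind and 10.55% of the second. The share of all genes highest in fetal liver was not counted. Of the 84 members 24 were measured nowhere, and the percentages leave out such genes. The bone marrow set holds 8 receptor chains (Il1r2, Il28ra, Il17ra, Il2rb, Il7r, Il2rg, Il18r1 and Il18rap), 5 ligands (Il1b, Il16, Il1f9, Il4 and Il12a), the antagonist Il1rn and the chemokine receptor Il8rb. The adult liver set is made up of receptor chains: Il17rc, Il1rap, Il6st, Il13ra2 and Il15ra. Another 5 members, namely Il1b, Il18, Il4ra, Il6ra and Il13ra1, were at least 4-fold lower in fetal liver than in both other tissues, where 1.53% of all genes measured somewhere were. The receptors Il1rl1 and Il1rl2 were lowest in adult liver, and Il17rc and Il1r1 lowest in bone marrow, where 7.12% and 5.53% of all genes measured somewhere were.

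The promoters of 4 of these genes are shown because the genes represent both sets: Il1b is a ligand of the bone marrow set, Il1r2 the decoy receptor for the same ligand, Il8rb the chemokine receptor with a bone marrow signal of 482, and Il13ra2 a member of the adult liver set. Each runs from 250 bases before to 50 after the RefSeq start of the gene on GRCm38.p6, 5′ to 3′ on the gene's strand. Capitals mark the core letters of the myeloid factor PU.1, GAGGAA or its reverse complement, and C/EBP-like letters, TTNNGNAA on either strand, where N is any base.
Il1b, chr2:129371090-129371389, minus strand: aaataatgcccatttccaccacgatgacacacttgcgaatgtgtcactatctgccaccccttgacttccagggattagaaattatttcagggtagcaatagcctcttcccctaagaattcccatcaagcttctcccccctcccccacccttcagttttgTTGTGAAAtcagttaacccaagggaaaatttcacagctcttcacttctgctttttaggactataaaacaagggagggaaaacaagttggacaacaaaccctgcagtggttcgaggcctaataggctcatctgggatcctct
Il1r2, chr1:40085843-40086142, plus strand: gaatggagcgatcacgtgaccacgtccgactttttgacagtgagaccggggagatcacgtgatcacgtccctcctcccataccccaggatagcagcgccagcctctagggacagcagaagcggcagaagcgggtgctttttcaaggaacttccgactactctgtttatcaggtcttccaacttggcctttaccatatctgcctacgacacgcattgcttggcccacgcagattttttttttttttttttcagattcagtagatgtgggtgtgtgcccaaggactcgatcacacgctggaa
Il8rb, chr1:74153744-74154043, plus strand: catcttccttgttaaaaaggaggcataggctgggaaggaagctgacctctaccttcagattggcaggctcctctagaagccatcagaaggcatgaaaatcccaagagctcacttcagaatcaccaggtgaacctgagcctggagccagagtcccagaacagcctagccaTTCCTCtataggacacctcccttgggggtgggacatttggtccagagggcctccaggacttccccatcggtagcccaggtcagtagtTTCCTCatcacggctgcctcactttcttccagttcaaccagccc
Il13ra2, chrX:147429143-147429442, minus strand: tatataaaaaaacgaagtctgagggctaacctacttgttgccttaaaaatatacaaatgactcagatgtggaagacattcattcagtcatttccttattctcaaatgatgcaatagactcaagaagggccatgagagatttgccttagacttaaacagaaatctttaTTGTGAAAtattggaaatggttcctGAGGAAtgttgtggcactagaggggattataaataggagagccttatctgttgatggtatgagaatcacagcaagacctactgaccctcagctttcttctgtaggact
Il8rb holds 2 PU.1 cores, both as the reverse complement, Il1b holds 1 C/EBP-like match, Il13ra2 holds 1 of each, and Il1r2 holds neither. Whether the share of promoters with these letters goes with the tissue was not tested, and the sets are small. A promoter was found for 68 members. Of the 13 members highest in bone marrow that have one, 3 (23.1%) held the PU.1 core and 4 (30.8%) the C/EBP-like letters, against 28.2% and 40.8% of all 27025 promoters. Of the 5 highest in adult liver, 2 held the first and 1 the second. Of the 68, 25 (36.8%) held the PU.1 core and 29 (42.6%) the C/EBP-like letters. The AP-1 letters TGANTCA, on either strand, were held by 12 of the 68 (17.6%), against 7.91% of all promoters. For the GATA letters AGATAA the shares were 16.2% of the 68 and 11.4% of all. In the bone marrow set 1 of 13 held the AP-1 letters and 1 of 13 the GATA letters, and in the adult liver set 1 of 5 each. A match of letters is a description, and matches of different motifs could overlap.

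Among the ligands, Il1b, the interleukin-1 beta that starts fever and acute inflammation, gave 1591 scaled units in bone marrow, 161 in adult liver and 3.33, not well above background, in fetal liver. Its probe (chromosome 2, 129190347 to 129190406, mm9, as are all probe positions here) is printed on 10 spots per array. These ranged between 1565 and 1632 in bone marrow, 149 and 176 in adult liver and 2.05 and 7.85 in fetal liver, where 3 of 10 spots were well above background. The tissues did not overlap at the level of spots, which share 1 RNA sample. Bone marrow was 9.88-fold higher than adult liver and at least 409-fold higher than fetal liver, and adult liver at least 41.4-fold higher than fetal liver. Il1a, interleukin-1 alpha, was measured only in bone marrow, at 5.46, against 2.97 in adult liver and 2.31 in fetal liver.

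Il18, which like Il1b is matured by caspase-1, differed by 1.33-fold between bone marrow and adult liver: 95.0 in bone marrow, 126 in adult liver and 18.6 in fetal liver. Its 10 spots spanned 89.7 to 99.9, 116 to 136 and 14.7 to 20.8, without overlap. Fetal liver was thus the low tissue, by 5.10-fold against bone marrow and 6.78-fold against adult liver. Il33, an alarm signal kept in the nucleus of barrier and stromal cells, had the opposite place of bone marrow, with 4.35 there, 48.9 in adult liver and 16.7 in fetal liver. It was 11.2-fold lower in bone marrow than in adult liver and was the ligand with a 4-fold difference in that direction.

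Of the interleukin-36 ligands, known from skin, 1 was called at 4-fold or more. Il1f9, interleukin-36 gamma, gave 172 in bone marrow, against 1.73 in adult liver and 1.04 in fetal liver, neither well above background. The bounds are at least 27.0-fold and at least 44.3-fold, and its other probe also was measured in bone marrow alone, at 65.5. Il1f8 was measured in all tissues, at 4.38, 14.3 and 6.04, and Il1f6 in fetal liver alone, at 10.6. Il1f10, a relative of these genes that is counted here among the ligands, was measured nowhere.

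Il16, a ligand of CD4 made by lymphocytes, gave 857 in bone marrow, 63.7 in adult liver and 74.9 in fetal liver, which is 13.5-fold and 11.5-fold higher in bone marrow. Il12a, a subunit of interleukins 12 and 35, gave 50.6, 6.68 (not well above background) and 9.02, so that bone marrow was at least 7.58-fold and 5.62-fold higher. Il4, the type 2 cytokine, gave 56.3, 8.46 and 10.1. Its 10 spots lay between 49.9 and 60.0 in bone marrow, 7.15 and 10.46 in adult liver and 8.06 and 11.7 in fetal liver, so both livers overlapped and bone marrow stood apart, by 6.65-fold and 5.60-fold. Il4, like Il10ra, Il10rb and Il27ra among the receptors and the measured members under 4-fold other than the 6 evenest, was chosen for naming after its values were seen.

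Several ligands that act on lymphocytes or acute inflammation were dim. On its 10 spots Il6 lay between 9.36 and 12.0 in bone marrow, all well above background, against 2.60 to 12.4 in adult liver, where 2 of 10 spots were, and 0.85 to 2.77 in fetal liver, where none was. Il10 and Il12b, also on 10 spots, were not measured in any tissue, and neither were Il3, Il5, Il7, Il9, Il17a, Il17b, Il19, Il20, Il21, Il22, Il23a, Il25, Il28b and Il31. Together with Il1f10 these are 17 of the 37 ligands, against 5 of the 40 receptor chains. Of all 19712 named genes, 4383 were measured nowhere. The 6 evenest members were 4 ligands and 2 receptor chains. Il24 gave 10.7, 11.9 and 10.6 in bone marrow, adult liver and fetal liver, a range of 1.13-fold, Il11 a range of 1.503-fold, Il13 of 1.83-fold and Il15 of 1.94-fold. Il17rd and Il22ra1 were the receptor chains in this group, with ranges of 1.51-fold and 1.89-fold. Another Il17rd probe was measured in adult liver alone, at 10.35, so its evenness belongs to the probe chosen. The second Il24 probe was measured nowhere, at 0.75, 1.82 and 1.12, so the Il24 signal also belongs to the probe chosen.

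**Figure D3:**
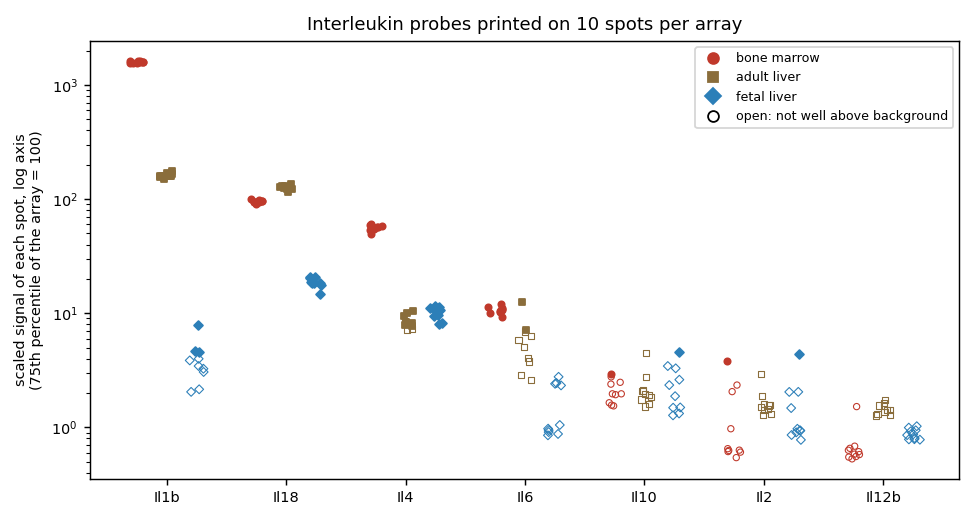
Scaled signal of each spot (vertical, log axis) for the 7 interleukin probes printed on 10 spots per array, by tissue. Filled symbols are spots well above background and open ones are not. Il1b and Il18 separate the 3 tissues, Il4 separates bone marrow from both livers, and Il10, Il2 and Il12b lie near background with at most 1 filled spot per tissue.

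Among the receptors, the interleukin-1 receptor group held contrasts in both directions. On chromosome 1, 6 of its genes have probes between 40180014 and 40605788: Il1r2, Il1r1, Il1rl2, Il1rl1, Il18r1 and Il18rap. All 6 were measured in bone marrow, 3 in fetal liver and 1 in adult liver. Il1r2, a decoy that binds interleukin-1 without signalling, gave 381 in bone marrow, against 1.44 in adult liver and 3.52 in fetal liver, so it was at least 59.8-fold and at least 98.1-fold higher in bone marrow. Il1r1, the signalling receptor for the same ligand, lay the other way, with 34.1 in bone marrow, 209 in adult liver and 303 in fetal liver. It was 6.14-fold and 8.89-fold lower in bone marrow. These neighbours, with opposite functions, thus had opposite tissue orders on these arrays.

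Il18r1 and Il18rap, both chains of the interleukin-18 receptor, were measured in bone marrow alone. Il18r1 gave 134, against 1.59 in adult liver and 0.96 in fetal liver, and Il18rap 68.0, against 1.72 and 2.13. The other Il18rap probe was measured nowhere. Bone marrow was at least 21.05-fold and at least 34.5-fold higher for Il18r1 and at least 10.7-fold and at least 17.5-fold for Il18rap. T and NK cell markers, which mark cells known to carry this receptor, were all 7 of 7 well above background in bone marrow and 2 of 7 in each liver. Their summed signal was 493 in bone marrow, 79.1 in adult liver and 102 in fetal liver. Their part in the result was not tested.

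Il1rl1, the receptor of Il33, gave 320 in bone marrow, 3.74 (not well above background) in adult liver and 125 in fetal liver. It was at least 50.2-fold higher in bone marrow than in adult liver and at least 19.5-fold lower in adult than in fetal liver. Il1rl2, the interleukin-36 receptor, had the same order, with 60.1, 3.78 (not well above background) and 32.9, and bounds of at least 9.44-fold and at least 5.16-fold. The other Il1rl2 probe was measured nowhere. Mast cells, basophils and eosinophils are known to carry Il1rl1. Of their 7 markers all were well above background in bone marrow, 2 in adult liver and 5 in fetal liver, where Mcpt8 and Ms4a2 were not, with summed signals of 33440, 31.2 and 122. Their part was not tested.

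Il1rap, the accessory chain shared by the receptors for interleukins 1, 33 and 36, differed between its 5 probes. The probe that stands for the gene, designed on NM_134103 (chromosome 16, 26701498 to 26701557), gave 12.9 in bone marrow, 772 in adult liver and 3.13, not well above background, in fetal liver. On this probe bone marrow was 60.1-fold lower than adult liver, and adult liver at least 199-fold higher than fetal liver. The probe for AK045686 gave 38.8, 11.6 and 2.62, highest in bone marrow, and that for ENSMUST00000096129 gave 6.18, 1.81 and 19.9, highest in fetal liver. The last 2 probes were measured nowhere. The gene is known to give membrane-bound and soluble forms, and which form each probe reads is not given in the sources used here, so the adult liver signal belongs to 1 probe and not to the gene as a whole. Il1rl1 likewise had a second probe, with 22.02 in bone marrow, 1.29 in adult liver and 11.6 in fetal liver, in the same order, and 1 more measured nowhere.

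**Figure D4:**
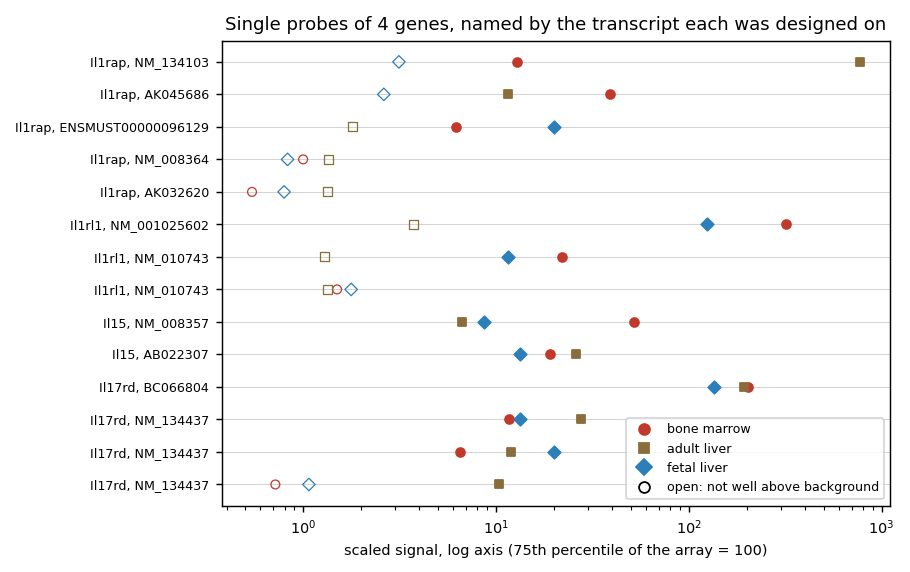
Scaled signal (horizontal, log axis) of each probe of Il1rap, Il1rl1, Il15 and Il17rd, named by the transcript it was designed on, with bone marrow, adult liver and fetal liver as symbols and open symbols not well above background. The 3 measured Il1rap probes are each highest in another tissue, whereas the 2 measured Il1rl1 probes keep 1 order.

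Several receptor chains of the common gamma chain family are known from lymphocytes and their precursors. Il2rg, the common gamma chain itself, gave 146 in bone marrow, 1.51 (not well above background) in adult liver and 6.503 in fetal liver, at least 22.97-fold and 22.5-fold higher in bone marrow. Il7r, needed for B and T cell development, gave 158, against 1.93 and 2.32, neither well above background, with bounds of at least 24.7-fold and at least 40.6-fold. Of its 3 probes another was measured in bone marrow alone, at 6.20, and the last nowhere. Its ligand Il7 was measured in no tissue. Il2rb, the chain shared by interleukins 2 and 15, gave 206, 18.2 and 10.3, which is 11.3-fold and 20.1-fold higher in bone marrow. Il21r gave 125, 10.3 and 37.05, and was 12.2-fold higher in bone marrow than in adult liver and 3.38-fold higher than in fetal liver. B cell markers were well above background 6 of 6 in bone marrow and 4 of 6 in each liver, where Cd79a and Pax5 were not, with summed signals of 7575 in bone marrow, 141 in adult liver and 168 in fetal liver. Their part in these results was not tested.

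In the same family Il15ra, which presents interleukin-15 to neighbouring cells, had its place in adult liver. It gave 17.7 in bone marrow, 106 in adult liver and 8.06 in fetal liver, which is 5.98-fold lower in bone marrow than in adult liver and 13.1-fold higher in adult than in fetal liver. Its second probe had the same order, at 9.38, 48.2 and 6.61. Its ligand Il15 was among the even members on 1 probe, at 19.1, 26.0 and 13.4, but a second probe gave 52.2 in bone marrow, 6.68 in adult liver and 8.70 in fetal liver. Il4ra, the receptor chain for interleukins 4 and 13, gave 646, 816 and 151, and was 4.27-fold and 5.39-fold lower in fetal liver than in bone marrow and adult liver.

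The interleukin-13 receptors split. Il13ra2, a high-affinity decoy, gave 1.70 in bone marrow, 172 in adult liver and 0.94 in fetal liver, and was well above background in adult liver alone. It was at least 64.8-fold lower in bone marrow than in adult liver and at least 44.2-fold higher in adult than in fetal liver. Il13ra1, which signals with Il4ra, gave 19.8 in bone marrow, 40.1 in adult liver and 3.96 in fetal liver, the last not well above background, with bounds of at least 4.99-fold and at least 10.1-fold towards bone marrow and adult liver. A brighter probe of Il13ra1 was left out because its spot was marked as uneven on the adult liver array. Il5ra, the eosinophil receptor chain, was measured in bone marrow alone, at 22.1, at least 5.70-fold above fetal liver and at least 3.47-fold above adult liver. Il3ra was bright in all tissues, at 585, 1551 and 474, and differed by less than 4-fold.

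Among the receptors of the interleukin-6 group, whose cytokine is known to drive the acute phase response of the liver, Il6st and Il11ra1 were lower in bone marrow than in adult liver by over 4-fold, and Il6ra and Il27ra were not. Il6st, the shared signalling chain gp130, gave 120 in bone marrow, 752 in adult liver and 118 in fetal liver, so it was 6.29-fold lower in bone marrow than in adult liver and 6.38-fold higher in adult than in fetal liver. Il11ra1 gave 647, 5363 and 1736, which is 8.28-fold lower in bone marrow than in adult liver, and its second probe had the same order, at 246, 1841 and 619. Il6ra, the binding chain, was as high in bone marrow as in adult liver to within 1.32-fold, at 48.7 and 64.4, and was 5.17-fold and 6.83-fold lower in fetal liver, at 9.43. Its second probe, at 26.9, 14.3 and 5.91, kept fetal liver lowest but put adult liver under 4-fold from it. Il27ra gave 27.1, 7.49 (not well above background) and 4.87, and was 5.55-fold higher in bone marrow than in fetal liver.

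Within the interleukin-17 receptors the partners Il17ra and Il17rc, which together bind interleukin-17A and 17F, had opposite orders. Il17ra gave 356 in bone marrow, 56.7 in adult liver and 61.1 in fetal liver, which is 6.27-fold and 5.81-fold higher in bone marrow. Il17rc gave 30.2, 2489 and 337, which is 82.5-fold and 11.2-fold lower in bone marrow, and 7.39-fold higher in adult than in fetal liver. The second probes of both kept these orders, with 252, 34.4 and 36.0 for Il17ra and 14.4, 1059 and 136 for Il17rc, and 1 more Il17rc probe was measured in adult liver alone, at 33.6. Il17rb, the interleukin-25 receptor chain, gave 17.2, 54.6 and 9.97, and was 5.48-fold higher in adult than in fetal liver. The other Il17rb probe was measured nowhere. Hepatocyte markers summed to 45.6 in bone marrow, 211677 in adult liver and 94231 in fetal liver, with 2 of 6, 6 of 6 and 5 of 6 well above background, and endothelial markers to 178, 1502 and 1366, with 5 of 5 in each. Stromal and stellate cell markers summed to 4580, 8419 and 4499, with 4 of 5, 5 of 5 and 4 of 5, Lrat being the one not well above background in bone marrow and fetal liver. Macrophage and Kupffer cell markers summed to 4385, 9388 and 5349, with 6 of 7 (without Clec4f), 7 of 7 and 6 of 7 (without Vsig4). The part of these 4 kinds of cells in the signals of Il17rc, Il6st, Il11ra1, Il1rap, Il13ra2, Il15ra, Il1r1 and Il33 was not tested.

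Il28ra, the interferon lambda receptor, gave 457 in bone marrow, 1.48 (not well above background) in adult liver and 5.70 in fetal liver, at least 71.7-fold and 80.2-fold higher in bone marrow. Its ligand gene on the array, Il28b, was measured nowhere. Il10rb, the chain that interferon lambda, interleukin-10 and interleukin-22 share, was bright throughout on the probe chosen. It gave 1286, 304 and 715 there, and was 4.24-fold higher in bone marrow than in adult liver. Its second probe was measured in fetal liver alone, at 5.16, against 1.12 in bone marrow and 1.45 in adult liver. Il10ra gave 307, 68.8 and 79.3, which is 4.47-fold higher in bone marrow than in adult liver. Il8rb, the neutrophil chemokine receptor Cxcr2, gave 482, 1.39 (not well above background) and 6.81, at least 75.6-fold and 70.7-fold higher in bone marrow. Where the dim signal lies this close to the limit of its array, the size of a fold is uncertain. Neutrophil markers were well above background 8 of 8 in bone marrow, 3 of 8 in adult liver and 8 of 8 in fetal liver, with summed signals of 176255, 288 and 14658. Mature neutrophils are known to carry Il8rb and Il1r2 and to make Il1b, and the part of these cells in the results was not tested. Il12rb2, Il23r, Il9r, Il1rapl1, Il1rapl2 and Il8ra were measured nowhere.

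Of the soluble antagonists, Il1rn, which blocks Il1r1, followed its opponent Il1b in being highest in bone marrow, with 314, against 14.4 in adult liver and 8.29 in fetal liver. It was 21.8-fold and 37.9-fold higher in bone marrow, and its second probe was measured in bone marrow alone, at 8.97. Il1f5, the interleukin-36 antagonist, was measured in adult liver alone, at 12.4, and was at least 4.67-fold lower in bone marrow. The signal lies within 1.94-fold of that array's lowest measured one, and the bound fell below 4-fold with normexp, median scaling, quantile normalization, the authors' deposited normalized column and 1 common limit for the arrays. Il18bp, which binds interleukin-18, gave 115, 218 and 87.3, under 4-fold in every comparison. Il22ra2 was measured nowhere. Il4i1, the oxidase, gave 69.5, 37.8 and 21.8.

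**Figure D5:**
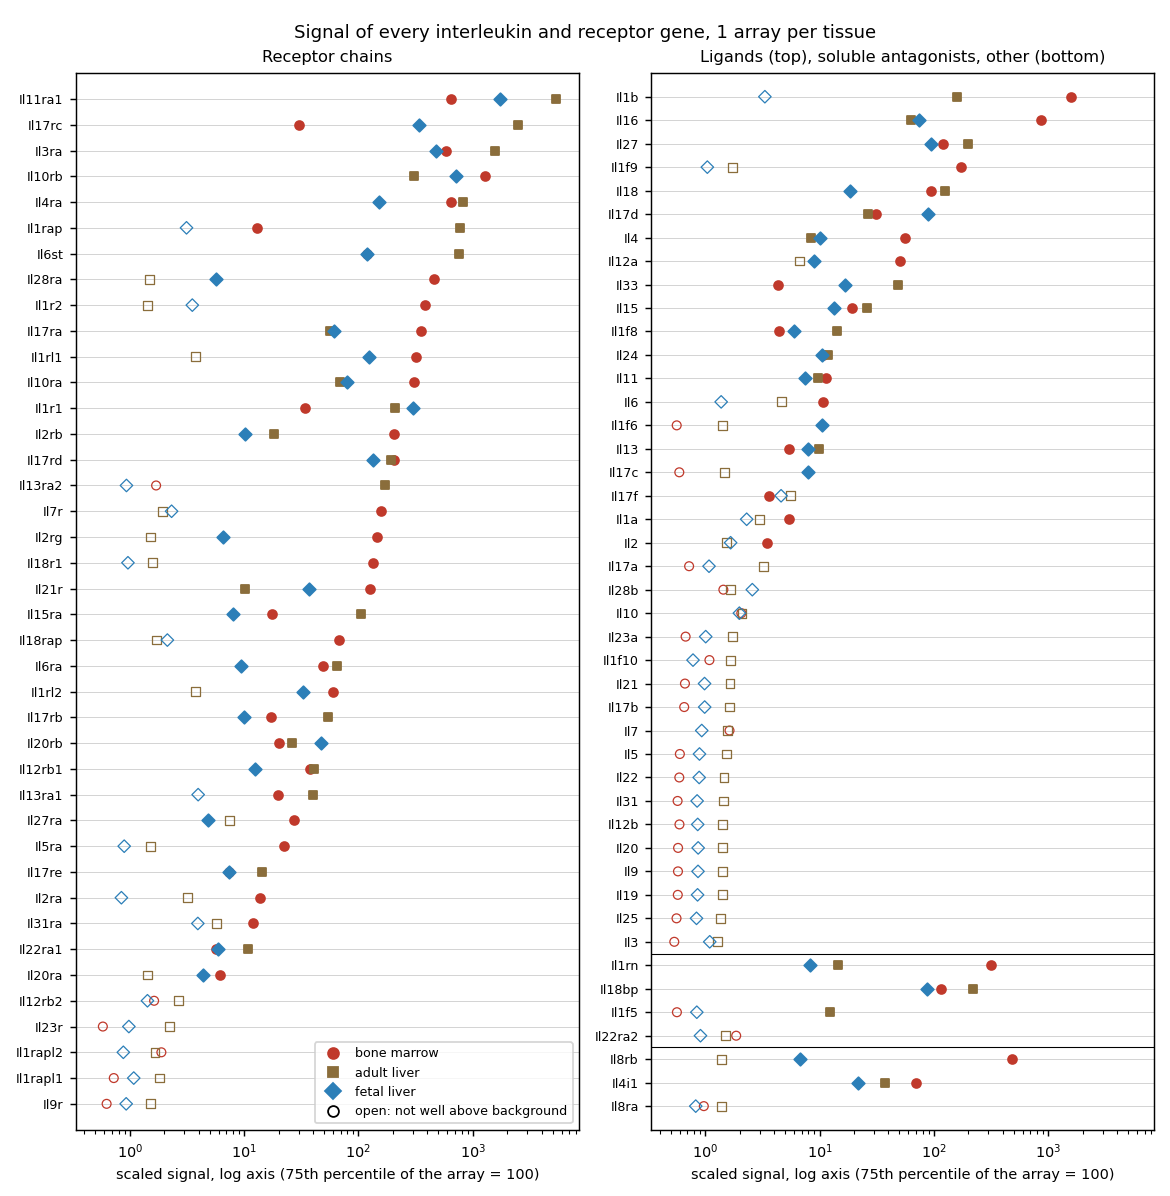
Scaled signal (horizontal, log axis) of every member in bone marrow, adult liver and fetal liver, receptor chains on the left and ligands, soluble antagonists and other members on the right, each ordered by the highest signal. Open symbols are not well above background. Bone marrow is highest for Il1b, Il16, Il1r2, Il28ra and Il8rb, adult liver for Il11ra1, Il17rc, Il1rap and Il6st, and 17 ligands have open symbols alone.

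Setting each ligand beside its receptor gives the tissue orders without comparing levels between probes. Il1b, its decoy Il1r2 and its antagonist Il1rn were all highest in bone marrow, and its receptor Il1r1 lowest there. Il33 was highest in adult liver, where its receptor Il1rl1 was lowest. Il18 was measured in every tissue and both its receptor chains in bone marrow alone. Interleukin-7 and interferon lambda had a receptor chain high in bone marrow and no measured ligand gene in any of the tissues. They were not alone in this. Il21, Il10, Il17a and Il5 also were measured nowhere, and Il21r, Il10ra, Il17ra and Il5ra were highest in bone marrow. Il3 and Il25 were measured nowhere as well, but Il3ra and Il17rb were highest in adult liver. Neither Il9 nor Il9r was measured. Of the interleukin-10 group, 4 ligand genes have probes on chromosome 1 between 132778780 and 132921002, and Il24 was the measured one, on 1 of its 2 probes. Of the type 2 group on chromosome 11 between 53426076 and 54079056, Il4 and Il13 were measured in every tissue, and Il5 and Il3 in none.

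The pathway genes outside the name rule also were more often higher in bone marrow than lower. From a list of 30 shared receptor chains, kinases, adaptors and transcription factors, 29 were compared in each case. Bone marrow was at least 4-fold higher than adult liver for 8 and lower for 3, and higher than fetal liver for 8 and lower for 1. Adult liver was higher than fetal liver for 2 and lower for 3. Over all genes the shares were 14.4% and 18%, 8.19% and 9.21%, and 13.8% and 11.7%. The median log2 differences of the list were 0.83, 1.21 and 0.42, where all genes had -0.09, -0.26 and -0.06. Of the 8 with the widest range, Lifr, a partner of gp130, gave 21.02 in bone marrow, 1268 in adult liver and 248 in fetal liver, 60.3-fold lower in bone marrow than in adult liver. Osmr, another gp130 partner, gave 25.9, 84.3 and 7.46, 11.3-fold higher in adult than in fetal liver. Both thus were highest in adult liver, as gp130 was.

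The other 6 were highest in bone marrow. Stat4, which relays interleukin-12, gave 199, against 4.79 (not well above background) in adult liver and 13.4 in fetal liver, at least 31.2-fold and 14.9-fold higher. Ebi3, a subunit of interleukins 27 and 35, was 30.2-fold and 7.13-fold higher, and Irak3, a brake on interleukin-1 receptor signalling, at least 29.0-fold and 27.8-fold. Casp1, which matures Il1b and Il18, gave 723, 45.9 and 34.2, 15.8-fold and 21.2-fold higher in bone marrow. Tyrobp, an adaptor of myeloid receptors, was 20.9-fold and 23.1-fold higher, and Csf2rb2, the mouse beta chain for interleukin-3, 12.7-fold and 8.76-fold. Csf2rb2 has a close copy, Csf2rb, and how far each probe reads the other was not tested.

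Probes of 1 gene were often not called alike. Of the 15 called members with several probes between bone marrow and adult liver, every probe was called the same way for 7. For 6 a probe was dim in both tissues. Another probe of Il16, Il1rl1 and Il1rn gave only a lower bound, at least 2.56-fold, 3.46-fold and 1.41-fold, so its fold may exceed 4. An Il1rap probe was 3.34-fold higher in bone marrow, the other way from the probe chosen. Between bone marrow and fetal liver, 6 of 10 were called on every probe, and between adult and fetal liver 2 of 7. No called member had a probe that reached 4-fold the other way. Scaling to spiked-in control RNA in place of the 75th percentile moves the median of all genes to 2.59 (bone marrow over adult liver) and 1.95 (over fetal liver). Under it Il15ra, Il1r1 and Il6st were no longer lower in bone marrow than in adult liver, and Il11ra1, Il17rb, Il17rc, Il1r1, Il33 and Il4ra each had a difference that fell below 4-fold. Their differences hold relative to the bulk of each array's genes.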

How the data were processed

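Scanner files of 3 arrays were used, 1 per tissue. The submitters' processing notes name Agilent Feature Extraction 10.5.1.1 as the software. Per the file headers, the deposited processed signal intensity had its background subtracted, is linear and was not set to a common level across arrays. The authors' deposited table of the whole series gives an intensity column named raw and a normalized ratio and fold column. On all 45018 spots of each array that raw column holds the signal's error (to within 1%), so this table served only as an alternative.

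Left out were control spots and outlier-flagged spots (80, 75 and 71 gene spots on the arrays of bone marrow, adult liver and fetal liver). The processed signal was divided by the array's 75th percentile over gene spots and multiplied by 100 (Python 3.11.15, numpy 2.4.6, pandas 2.3.3), and spots of a probe were averaged on the log2 scale. A probe was measured where over 50% of its spots were well above background, and a gene was read by the probe measured on most arrays, then the brightest. Of 41172 probes, all but 8489 were named through RefSeq tables of GRCm38.p6. Members keep the array's names, of which 4 have another current symbol. Members, roles, lists and motifs were chosen with earlier results of these data known. Named are members at least 4-fold apart, up to 15 per direction and comparison, the 6 evenest members, and up to 8 pathway genes by range. The fold rule recovered 102 of 102 changed probes in signals simulated from the bone marrow array. The planted changes exceeded 4-fold, the added noise was small, and only probes measured in both simulated tissues were scored. Recovery thus followed from these settings, which checks the code and says nothing about the calls. Alternatives were normexp background correction (limma 3.58.1, R 4.3.3), other scalings, filters, probe rules and thresholds. No test was made, since each tissue has 1 array. Promoters are RefSeq's.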

Additional observations from a re-analysis of the deposited data

How the results depend on the processing

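No paired analysis was possible because each tissue has 1 array, and no array could be left out. In the order bone marrow over adult liver (higher, lower), bone marrow over fetal liver (higher, lower) and adult over fetal liver (higher, lower), the counts were 20, 9, 21, 2, 11 and 2. Scaling to spike-ins moved them to 39 and 3, to 47 and 0, and to 4 members lower in adult than in fetal liver. It shifted the median of all genes to 2.59, 1.95 and -0.51, against -0.16, -0.25 and 0.03. It turned bone marrow over adult liver to 0.16 for Il15ra, 0.13 for Il1r1 and 0.0916 for Il6st (log2). Keeping only genes measured on all 3 arrays, and so fewer, left 8 members higher and 6 lower in bone marrow than in adult liver. Against fetal liver 8 were higher and 2 lower in bone marrow. Between adult and fetal liver, 7 were higher and 0 lower in adult liver. At 8-fold, 5 members were lower in bone marrow than in adult liver, 12 higher than in fetal liver, and 5 and 1 higher and lower in adult than in fetal liver. At 2-fold, 8 were lower in bone marrow than in fetal liver, and 19 and 5 higher and lower in adult than in fetal liver. Without a filter on dim probes, 4 were lower in bone marrow than in fetal liver and 6 in adult than in fetal liver. That last count was 1 with normexp, 0 with the mean of all probes and 1 with the authors' deposited normalized column. With the positive-and-significant flag 19 ligands were measured in adult liver. Of 60 folds of named members, 59 stayed past 4-fold under median scaling, 59 under quantile normalization, 47 under normexp and 53 on the authors' column, of 58 with a value, 49 under the mean of all probes, and of 59, 50 under spike-in scaling, with 3 reversed. Those that fell below 4-fold were of Il11ra1, Il17rb, Il17rc, Il1r1, Il33 and Il4ra under spike-ins, of Il12a, Il13ra1, Il17rb, Il18, Il18rap, Il1f5, Il1rl2, Il5ra and Il6ra under normexp, of Il12a, Il13ra1, Il1f5, Il1rl2, Il5ra and Il6ra on the authors' column, of Il17rb, Il18rap, Il1rap, Il1rl1, Il1rl2 and Il7r under the mean of all probes, and of Il1f5 under median scaling and quantile normalization. With 1 lowest scaled signal for the 3 arrays they were of Il13ra1, Il1f5 and Il5ra. Leaving out Il4i1, Il8ra and Il8rb, and using 1 lowest scaled signal for the 3 arrays, both chosen after seeing the data, moved no count of calls by over 1.5 times. The cause of these shifts was not tested. Signal over background limits the dim members most in adult liver.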
